A study of Mus musculus with 8 samples.

Results

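Fragments named 4.5S rRNA or 45S rRNA were followed in mouse sperm. They are the distinct small RNA sequences whose only rRNA name in the annotation is 4.5S or 45S, with no tRNA or miRNA name. The rule took 4404 of 5724730 distinct fragments in 8 libraries, 1786 named 4.5S and 2618 named 45S, and none of these 4404 fragments carried any further name. They held 67568 reads named 4.5S and 188627 reads named 45S.

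The study asked whether exciting AgRP neurons, the hunger neurons of the hypothalamus, alters small RNA in sperm. Mature sperm from the caudae epididymides was sequenced from 4 activated and 4 control mice, with 1 library per mouse and 9297271 to 23123740 reads per library. Abundance is given as RPM, which is scaled to all reads of the library. Reads carry no molecular identifiers, so error is taken from the spread between mice.

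Activated mice were Agrp Cre/+ and control mice Agrp +/+. At 8 weeks of age, mice of both genotypes received the vector AAV-hM3Dq-mCherry in the arcuate nucleus on both sides. It carries an excitatory DREADD, a receptor that answers the drug CNO, under a neuronal promoter (hSYN) and in a form that needs Cre (DIO). After 3 weeks, all 8 mice had food removed for 1 h and were then given CNO at 1 mg/kg in the absence of food. Sperm was taken 4 h later. Virus and drug were thus shared by both groups, while the Cre allele and neuron activation cannot be told apart. In whole sperm preparations, fewer cells of a type and less RNA per cell cannot be told apart either.

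As background, the 45S precursor is transcribed by RNA polymerase I in the nucleolus and is cut into 18S, 5.8S and 28S rRNA. Its external and internal transcribed spacers are removed and degraded, and the 5′ external spacer is cut early, far upstream of 18S. The 5.8S rRNA is made in a short and a long form that differ at the 5′ end. The rodent 4.5S RNA is different in kind: it is a short transcript of RNA polymerase III related to the B1 repeat, not a part of the ribosome. Mature sperm hold little intact rRNA, and rRNA fragments are a usual part of their small RNA.

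The name 45S was checked against the sequences. Each fragment named 45S was compared with the fragments named 5.8S, 18S or 28S through shared runs of 12 bases. By reads, 73.3% lay at the 5′ end of 1 of these 3 mature RNAs and carried extra leading bases, in most cases a single base, while 26.7% shared no such run with a mature rRNA. Most reads named 45S were therefore ends of mature rRNA that begin slightly before the annotated mature sequence, not spacer, and they are called here by the name in the annotation and by family. The families were drawn up after the reads had been seen, and their sums were not tested singly.

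The sequences below are those on which the values turn, written 5′ to 3′. The first 4 are the fragments named 45S with the most reads at the start of 5.8S (with 1 and with more extra bases), 18S and 28S, with the bases that precede the named mature RNA in capitals. In the spacer site, capitals mark the most abundant fragment of the site, and in the unannotated read from the same start they mark the bases that lie outside the joined 45S fragments.
45S at 5.8S: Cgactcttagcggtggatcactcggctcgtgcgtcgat
45S at 5.8S, longer: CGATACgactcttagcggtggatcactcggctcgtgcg
45S at 18S: Tacctggttgatcctgcc
45S at 28S: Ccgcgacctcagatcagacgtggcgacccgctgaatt
spacer site: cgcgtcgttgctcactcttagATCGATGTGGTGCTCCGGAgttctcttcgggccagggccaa
unannotated read at the site: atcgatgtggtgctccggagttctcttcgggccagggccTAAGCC

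Before the results, 3 features set libraries apart. Control replicate 3 had the fewest reads and the lowest share matching the genome (59.1%, against 63.4% to 77.7% in the other 7 libraries), and 28S fragments made up 25.0% of its reads, against 10.7% to 15.8%. Control replicate 4 held 19420.2 RPM of the 7 epithelial miRNAs searched and 36491 RPM of the 5 smooth muscle and vessel miRNAs, against at most 3476 and 525 RPM elsewhere, and the most abundant of these were miR-200c (7487 RPM) and miR-143 (17171 RPM). The first principal component of all fragments, with 53.2% of the variance, placed activated replicates 1 and 4 and control replicates 2 and 4 apart from the other 4 libraries, and 16S rRNA of mitochondria made up 1.65% to 2.12% of reads in the former and 5.90% to 6.45% in the latter.

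The paper assessed sperm purity by qPCR and reported Prm2 as strongly enriched, with E-cadherin and C-kit low. Here, germ cell content was checked with 12 miRNAs of germ cells. Their presence does not test whether the sperm was mature or free of other cells. All 12 were found, summing to 62099, 45101, 36400.3 and 59817 RPM in activated replicates 1 to 4 and to 38702, 52127, 28438 and 45541 RPM in control replicates 1 to 4. The most abundant was miR-465, and none was at 0 in any library. The groups overlapped, and control replicate 3 was lowest.

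Reads named 4.5S were at similar levels in both groups. They came to 532, 548, 548 and 626 RPM in activated replicates 1 to 4 and to 543, 652, 720.4 and 528 RPM in control replicates 1 to 4. The groups overlapped, with control replicates 2 and 3 highest and control replicate 4 lowest. The activated mean was 563 ± 42.2 RPM and the control mean 611 ± 91.7 RPM (SD of 4 mice), which gives a ratio of 0.923 (exact permutation test, two-sided, p = 0.400, adjusted p = 0.667 over the 10 rRNA names in the annotation). Scaled to rRNA reads in place of all reads the ratio was 1.01, so the direction depends on the denominator. All p-values measure the spread between mice, and the smallest that 4 against 4 mice can give in an exact test is 0.0286.

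**Figure D1:**
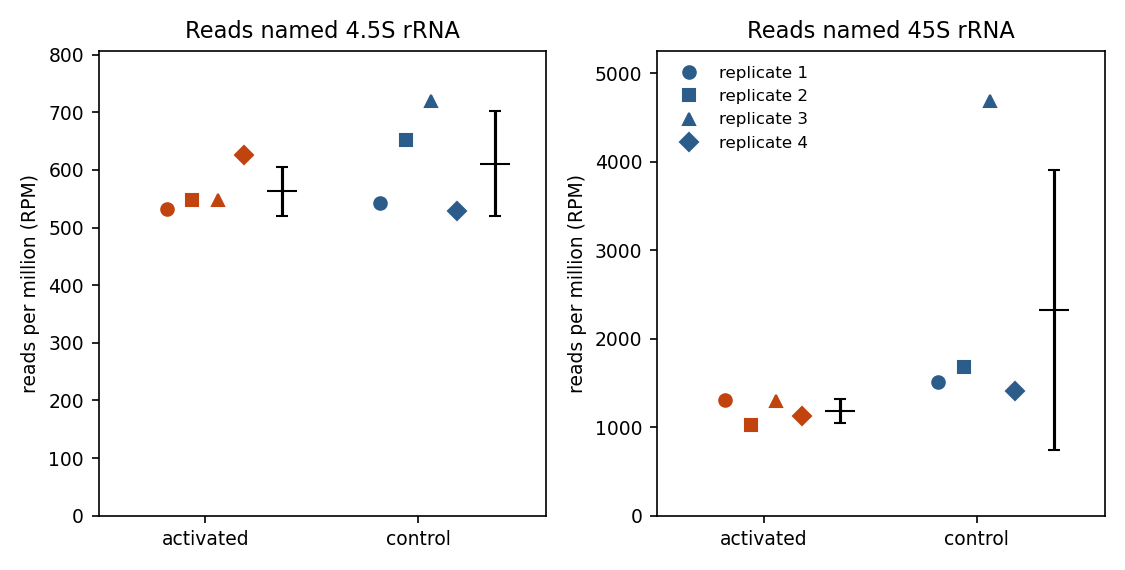
Reads named 4.5S (left) and 45S (right) in RPM for each mouse, with group means and SD in black (n = 4 each). The groups overlap for 4.5S, while every activated sample lies under every control sample for 45S and control replicate 3 stands at 4692 RPM.

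The most abundant 4.5S lengths were 43, 41 and 37 nt, with 7.18%, 6.86% and 6.42% of the mean RPM. At 43 nt, reads came to 33.0, 36.7, 40.6 and 47.1 RPM in activated and 43.3, 54.5, 48.8 and 33.0 RPM in control replicates 1 to 4. At 41 nt they came to 33.0, 37.6, 43.6 and 41.2 RPM against 36.1, 53.1, 41.2 and 36.4 RPM. At 37 nt they came to 30.7, 33.8, 53.9 and 45.6 RPM against 28.3, 37.5, 39.3 and 32.8 RPM. At each of these 3 lengths the groups overlapped, with ratios of 0.876, 0.932 and 1.19.

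Of the 1786 fragments named 4.5S, 19 reached 50 counts in 4 or more samples, and these held 49.7% of the 4.5S reads. Fragments of 4.5S overlap in sequence and are not replicates. They were tested with all 12077 fragments of any name that passed the same minimum, by edgeR's quasi-likelihood test with Benjamini-Hochberg adjustment. With calls set at an adjusted p under 0.05 and more than 1 log2 unit, edgeR called 0 of the 19 (0.505% of all fragments, 61 higher and 0 lower), with 2 at an unadjusted p under 0.05 (7.24% of all fragments), and DESeq2 with apeglm called 1 (1.99% of all fragments). Of the 19, 11 were lower and 8 higher in activated sperm, with a median log2 fold change of -0.08 against 0.01 over all fragments.

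The 5 most abundant 4.5S fragments had 43, 41, 37, 40 and 42 nt. The 43 nt fragment stood at 28.9, 29.4, 36.7 and 41.4 RPM in activated and 35.1, 47.0, 43.9 and 28 RPM in control replicates 1 to 4, with overlapping groups. Log2 fold changes of the 5 lay between -0.36 and 0.11 (each with edgeR adjusted p = 0.999). The 17 nt fragment had the highest log2 fold change of the 19, at 0.60 ± 0.55 (SE), with an edgeR adjusted p = 0.999, with 11.8, 6.52, 4.61 and 11.8 RPM in activated and 3.38, 7.09, 3.55 and 7.53 RPM in control replicates 1 to 4.

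The fragment called by DESeq2 was a 31 nt fragment of 4.5S. It stood at 4.03, 8.35, 4.88 and 4.57 RPM in activated and 14.7, 11.8, 52.8 and 8.57 RPM in control replicates 1 to 4. All activated values lay under all control values, and control replicate 3 was far above the others. By edgeR the difference was -2.06 ± 0.56 log2 units (SE, adjusted p = 0.286), while DESeq2 with apeglm gave -1.54 (adjusted p = 0.0385). Without control replicate 3, DESeq2 gave -0.87 (adjusted p = 0.0404), under the fold minimum, and edgeR -1.09 (adjusted p = 0.528).

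Reads named 45S differed in level between the groups by their exact test alone, not after adjustment over rRNA names. They came to 1304, 1026, 1293 and 1129 RPM in activated replicates 1 to 4 and to 1511, 1681, 4692 and 1414 RPM in control replicates 1 to 4. All activated values lay under all control values, and control replicate 3 stood far above the other controls. The activated mean was 1188 ± 135 RPM and the control mean 2324 ± 1582 RPM (SD of 4 mice), which gives a ratio of 0.511 (exact permutation test, two-sided, p = 0.0286, adjusted p = 0.286 over the 10 rRNA names). Without control replicate 3 the ratio was 0.774 (exact permutation test, p = 0.0286, the smallest that 4 against 3 mice can give).

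Under other denominators the exact p was higher. Scaled to genome-matching reads the ratio was 0.471 (exact permutation test, p = 0.0571), and scaled to rRNA reads it was 0.635 (exact permutation test, p = 0.0857). Within the libraries that the first principal component separates, ratios were 0.786 in the set with little 16S and 0.374 in the set that holds control replicate 3, while those of 4.5S were 0.982 and 0.867.

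Counts summed by RNA name were also tested with edgeR over all 618 names that passed the minimum. The log2 fold change was -0.08 ± 0.21 for 4.5S and -0.93 ± 0.41 for 45S (SE, edgeR adjusted p = 0.841 and 0.571). Without control replicate 3 these were 0.02 and -0.33 (edgeR adjusted p = 0.995 and 0.889), so that the sign for 4.5S changed. Of the 618 names edgeR called 0 (0% of names), with 50 at an unadjusted p under 0.05, and DESeq2 called 3 (0.485%), neither 4.5S nor 45S among them.

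Markers of other cells were set beside the 45S values. The 4 erythrocyte miRNAs searched were all found, with miR-451a the most abundant and none at 0. They summed to 298, 83.5, 113 and 84.1 RPM in activated and 235, 532, 976 and 659 RPM in control replicates 1 to 4 (exact permutation test, two-sided, p = 0.0571). Control replicate 3 was highest in both measures, and the groups overlapped in activated replicate 1 and control replicate 1. The 5 leukocyte miRNAs, led by miR-142a, summed to 432 to 979 RPM in activated and 394 to 879.8 RPM in control samples. The part of these cells, and of control replicate 3's rRNA content, in the 45S difference was not tested.

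Other rRNA names give the setting. Ratios of activated to control were 0.783 for 5.8S, 0.793 for 18S, 0.875 for 28S and 0.912 for 5S (exact permutation tests, p = 0.200, 0.171, 0.771 and 0.257), and 1.06 and 0.977 for mitochondrial 12S and 16S (exact permutation tests, p = 0.914 and 0.857). In each of these 6 the groups overlapped, and without control replicate 3 the ratio of 28S was 1.07 and that of 16S 1.21. Reads with the name Mt_rRNA had a ratio of 1.51 and overlapping groups (exact permutation test, p = 0.543), and reads named rRNA without a type had a ratio of 0.858 (exact permutation test, p = 0.400). Among the short transcripts of RNA polymerase III searched, Y RNAs were named, with ratios of 0.687 for RNY1 and 0.530 for RNY3 and overlapping groups (exact permutation tests, p = 0.171 and 0.143). Small nucleolar RNAs, which guide modification and cutting of the precursor, carried only the class name, with a ratio of 0.623 (exact permutation test, p = 0.143).

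The largest 45S family lay at the 5′ end of 5.8S rRNA, the small RNA that pairs with 28S in the large ribosomal subunit. It held 59.5% of the reads named 45S in 251 fragments, none of which matched the genome. The family stood at 718, 633, 802 and 691 RPM in activated and 909, 1140.0, 2534 and 754 RPM in control replicates 1 to 4. Control replicate 4 lay among the activated samples, and the ratio was 0.533, or 0.761 without control replicate 3. Reads with 1 extra base made up 86.6% of the family, those with 6 extra bases 5.97% and those with 2 extra bases 3.59%.

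The share of 5.8S ends with the extra base was steady. Among reads that start at the first base of the named 5.8S or 1 base before it, the longer start took 43.2%, 39.4%, 40.5% and 41.2% in activated and 41.3%, 40.3%, 40.3% and 41.5% in control replicates 1 to 4. The share thus ran from 39.4% to 43.2%, while the level of reads named 5.8S at that start ran from 789 to 3427 RPM. Control replicate 3, highest in level, lay inside the range of the other libraries in share. Reads with 6 extra bases stood at 57.7, 38.7, 48.6 and 46.5 RPM in activated and 52.0, 66.4, 73.6 and 79.3 RPM in control replicates 1 to 4, with overlapping groups.

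**Figure D2:**
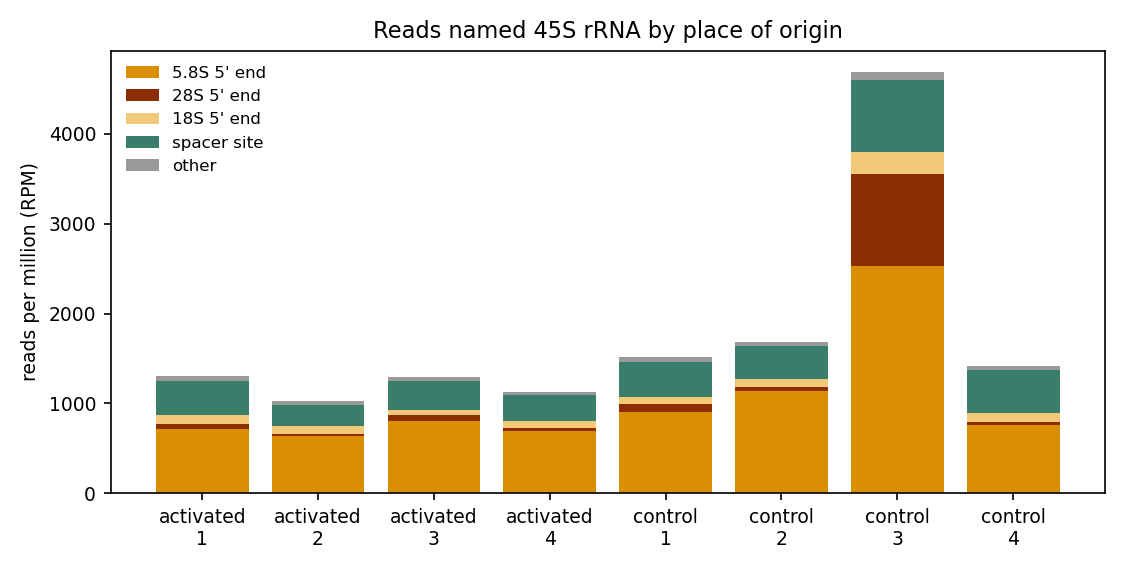
Reads named 45S in each library in RPM, stacked by family. The 5.8S family is the largest in all 8 libraries, and control replicate 3 holds 2534 RPM of it and 1015 RPM of the 28S family.

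The family at the 5′ end of 18S, the RNA of the small subunit, held 6.11% of the reads named 45S in 12 fragments, all of which matched the genome. It stood at 107, 78.7, 58.7 and 79.2 RPM in activated and 82.7, 97.6, 251 and 92.3 RPM in control replicates 1 to 4, with overlapping groups. Of its reads, 99.6% began 1 base before the fragments named 18S. On the plus strand, which these reads match, that base is the lowest of the GENCODE rRNA CT010467.1-201 (chr17:39846353-39848201, GRCm38), a transcript annotated on the minus strand. The interval of Rn18s-rs5, a pseudogene in RefSeq, starts 1 base later (chr17:39846354-39848202). Among reads at the first base of the named 18S or 1 base before it, the longer start took 94.1% to 99.3%.

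The family at the 5′ end of 28S, the RNA of the large subunit, held 7.70% of the reads named 45S in 124 fragments, and 82.4% of its reads had 1 extra base. It stood at 48.0, 31.2, 70.1 and 34.5 RPM in activated and 79.2, 37.8, 1015 and 42.4 RPM in control replicates 1 to 4. Control replicate 3 alone was high, and the remaining controls overlapped the activated samples. The ratio was 0.157, and 0.865 without control replicate 3. Unlike 5.8S and 18S, the longer start was rare, at 0.227% to 0.537% of reads at the 28S start, since reads named 28S from its first base stood at 158716 RPM in control replicate 3 and at 9404 to 24053 RPM elsewhere.

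**Figure D3:**
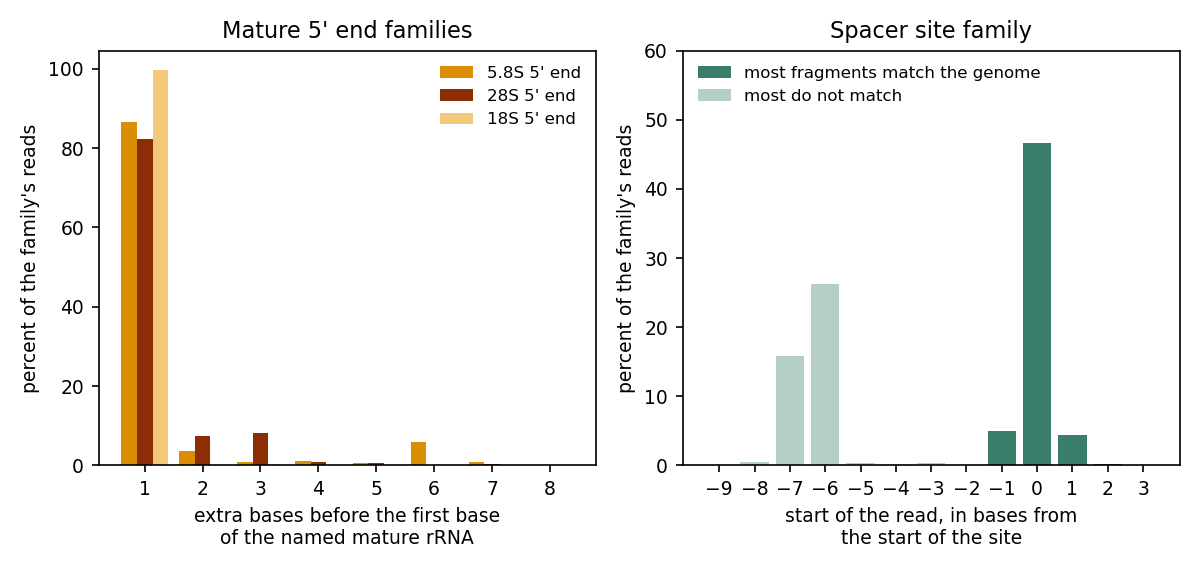
Left, the share of reads in each mature 5′ end family by the number of bases before the named mature rRNA. Right, the share of spacer site reads by start relative to the site. A single extra base leads in the 3 families on the left, and spacer reads start mainly at the site (46.6%) and 6 or 7 bases upstream (26.3% and 15.8%).

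The remaining large family was assigned to a single place in the 5′ external spacer, the stretch of precursor upstream of 18S. It held 23.7% of the reads named 45S in 264 fragments. Of these fragments 132, with 56.5% of the family's reads, matched the genome. Its most abundant fragment of 19 nt lies at chr17:39842999-39843017 (GRCm38, plus strand), 3354 bases before base 39846353 on that strand, where the 18S family starts. The place was set by overlap of a genome-matching read with the transcript Gm26917-202, which begins at base 39843013, and no genome sequence was used. Of the genome-matching reads named 45S, 52.9% started at this base, 29.2% at the start of the 18S family and 9.74% elsewhere in the upstream spacer.

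Starts in the spacer family were confined to few bases. The site itself took 46.6% of its reads, a start 1 base upstream 5.01% and a start 1 base downstream 4.41%, and 24 of 26, 25 of 26 and 22 of 22 fragments with these starts matched the genome. Starts 6 and 7 bases upstream took 26.3% and 15.8%, and none of the 28 fragments at either start matched the genome. Of 39058 reads of any name that began at the site, 53.2% were named 45S and 43.1% matched the genome without annotation. The unannotated reads extend to 45 nt and differ at their last bases, as the capitals above show. The longest run shared with the Mir5099 hairpin (chr12:36816205-36816278, GRCm38) was 21 nt, and 0.835% of the family's reads lay inside that hairpin.

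The spacer family stood at 377, 241, 320.2 and 284 RPM in activated and 388, 358, 798 and 483 RPM in control replicates 1 to 4. Activated replicate 1 lay above control replicate 2, and control replicate 3 was highest. The ratio was 0.602, or 0.745 without control replicate 3. Unannotated genome-matching reads from the same start stood at 121, 57.4, 75.6 and 70.4 RPM in activated and 185, 131, 501 and 158 RPM in control replicates 1 to 4, and all activated values lay under all control values. These reads were looked at after the values had been seen, and their difference was not tested.

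The other 1967 fragments named 45S held 3.05% of its reads, at 40.8 to 53.9 RPM in activated and 41.5 to 94.0 RPM in control samples. None of them reached 50 counts in 4 samples. Reads without a mature rRNA run of 12 bases, the spacer site included, had a ratio of 0.618, and reads at mature 5′ ends a ratio of 0.476. Without control replicate 3 these ratios were 0.765 and 0.777. In both parts the groups overlapped (exact permutation tests, p = 0.0571 each, and 0.0857 and 0.0571 without control replicate 3). The division was made after the data had been seen, so these tests were not planned.

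All 4.5S reads matched the genome, while a minority of 45S reads did. By family, 0% of reads matched at the 5.8S start, 0.0207% at the 28S start, 56.5% at the spacer site and 100% at the 18S start. The share thus also depends on the mix of families in a library. The share of 45S reads that matched was 27.1%, 24.3%, 19.7% and 25.7% in activated and 21.9%, 20.1%, 14.9% and 23.4% in control replicates 1 to 4. Control replicate 3 was lowest and the groups overlapped. Means were 24.2% ± 3.24 and 20.1% ± 3.68 (SD, n = 4 each), a difference of 4.14 percentage points (exact permutation test, two-sided, p = 0.143). The difference was 2.43 points without control replicate 3 and 2.38 points in reads of at least 20 nt.

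The most abundant 45S lengths were 37, 38 and 18 nt, with 13.2%, 9.65% and 7.07% of the mean RPM. At 37 nt, reads came to 68.2, 65.0, 175 and 74.0 RPM in activated and 112, 92.8, 1178 and 85.2 RPM in control replicates 1 to 4. At 38 nt they came to 123, 116, 121 and 129 RPM against 154, 225, 365 and 124 RPM. At 18 nt they came to 120.3, 85.5, 75.5 and 95.8 RPM against 105, 112, 294 and 105 RPM. Control replicate 3 was highest at each of the 3, and the groups overlapped. In replicates 1, 2 and 4 of both groups, 38 nt stood above 37 nt. The first rank of 37 nt in the mean thus rests on control replicate 3. At 8 of 31 lengths of 45S (23, 24, 28, 31, 32, 34, 39 and 45 nt), summed over reads with and without genome match, all activated values lay under all control values, with ratios of 0.426 to 0.541. Without control replicate 3 these ratios were 0.595 to 0.741. The share of such lengths over other RNAs was not computed for these sums, so how unusual 8 of 31 is cannot be judged. Among tested 45S classes split by genome match, the same held in 5 of 29 without and 1 of 17 with a match. The share over all classes was 1.83%.

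**Figure D4:**
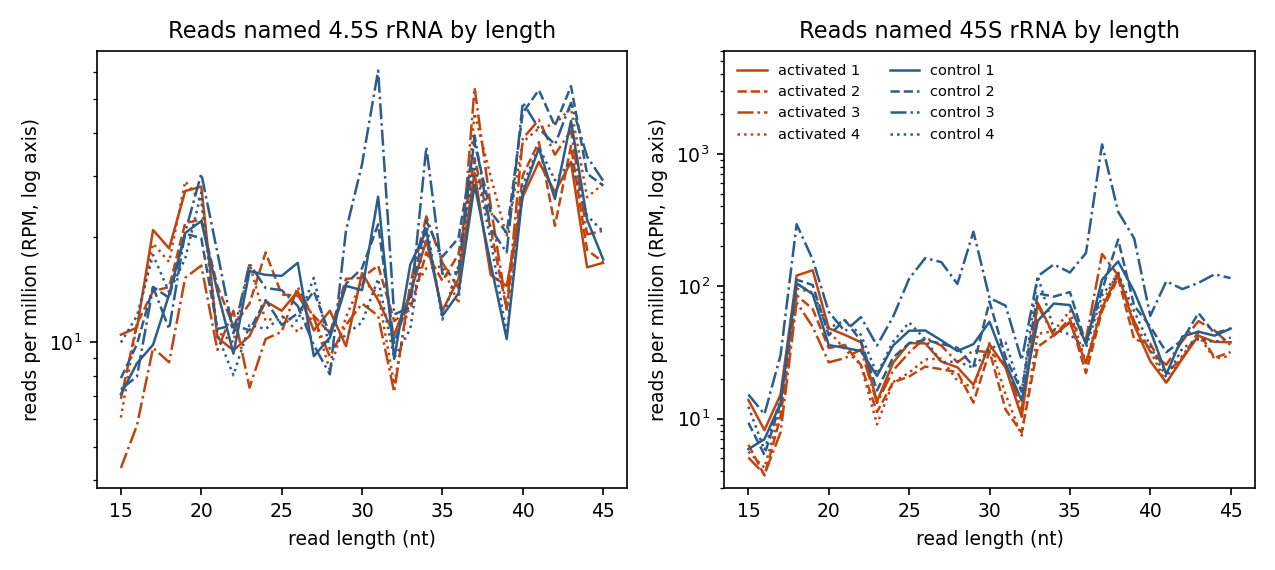
Reads named 4.5S (left) and 45S (right) by read length in RPM on a log axis, with 1 line per mouse. Control replicate 3 stands out at 31 nt for 4.5S (60.4 RPM) and over most lengths for 45S, most of all at 37 nt (1178 RPM).

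Counts summed by RNA name, length and genome match gave 3397 classes that passed the minimum, 77 of them 4.5S or 45S. Of the 77, edgeR called 0 (0% of all classes) and DESeq2, which gave no adjusted p for 3 of them, 37 nt without genome match included, called 0 (0.442% of all classes), with 17 at an unadjusted p under 0.05 in edgeR, all lower in activated sperm (22.1%, against 6.89% of all classes). The 31 classes of 4.5S had 16 lower in activated sperm, with a median log2 fold change near 0. In 6 of the 77, and in 0 of the 31 classes of 4.5S, all activated values lay under all control values (1.83% of all classes). The 29 classes of 45S without genome match were all lower (median -0.87, against -0.03 over all classes), while of the 17 with genome match 10 were lower (median -0.41). Without control replicate 3, the median over 4.5S and 45S classes moved from -0.34 to -0.14.

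Of the 2618 fragments named 45S, 63 passed the minimum and held 80.5% of the 45S reads, 32 in the 5.8S family, 25 in the spacer family and 3 each in those of 18S and 28S. By the same thresholds, edgeR called 0 of the 63, with 18 at an unadjusted p under 0.05, all lower (28.6%, against 7.24% of all fragments). DESeq2 with apeglm called 0 of the 63 and gave no adjusted p for 6 of them, among them the 37 nt fragments at the starts of 5.8S and 28S. Of the 63, 60 were lower in activated sperm (95.2%, against 49.0% of all tested fragments), with a median log2 fold change of -0.89. In 8 of the 63, all activated values lay under all control values (1.47% of all fragments). Fragments named 5.8S, 18S and 28S were lower in 75 of 103, 373 of 479 and 1323 of 1837. Over the 82 tested fragments of both names, 71 were lower with a median of -0.71, and without control replicate 3, 59 of 76 with a median of -0.34.

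Within 45S, the 5.8S family had 31 of 32 tested fragments lower (median log2 fold change -0.77) and the spacer family 23 of 25 (median -1.0). Fragments of a family overlap in sequence and are not replicates. The fragment with the highest mean RPM, of 37 nt and in the 5.8S family, stood at 43.9, 43.6, 119 and 49.1 RPM in activated and 59.0, 66.9, 592 and 50.3 RPM in control replicates 1 to 4. The groups overlapped, and the ratio moved from 0.333 to 1.09 without control replicate 3. The 38 nt fragment of the same family, which has the most reads in all, stood at 79.4, 93.0, 81.9 and 106 RPM against 114, 186, 225 and 60.8 RPM, with control replicate 4 lowest (-0.71 ± 0.40 log2 units, edgeR adjusted p = 0.860).

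The 18 nt fragment at the 18S start was the most abundant with a genome match, at 92.8, 68.5, 52.8 and 68.7 RPM in activated and 72.1, 83.6, 209 and 80.5 RPM in control replicates 1 to 4. Its groups overlapped (-0.68 ± 0.44 log2 units, edgeR adjusted p = 0.954). The 37 nt fragment at the 28S start had the lowest value, -3.24 ± 1.30 log2 units (edgeR adjusted p = 0.641). It stood at 7.38, 8.06, 36.1 and 11.4 RPM in activated and 27.5, 9.60, 532 and 12.0 RPM in control replicates 1 to 4, and its ratio moved from 0.108 to 0.962 without control replicate 3. The 33 nt fragment at the 5.8S start, the fifth by abundance, stood at 68.2, 29.3, 63.8 and 36.3 RPM in activated and at 47.4 to 110.5 RPM in control samples, with overlapping groups (-0.89 ± 0.49 log2 units, edgeR adjusted p = 0.853).

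In the spacer family, an 18 nt fragment had the highest log2 fold change of the 63, at 0.15 ± 0.48 (SE), with an edgeR adjusted p = 0.999, with 10.5, 3.03, 4.61 and 7.01 RPM in activated and 5.56, 5.49, 6.67 and 5.23 RPM in control replicates 1 to 4. The 39 nt fragment from the same start, chosen after its values had been seen, stood at 24.1, 12.1, 17 and 12.1 RPM against 51.7, 24.7, 128 and 31.3 RPM. All activated values lay under all control values, with activated replicate 1 and control replicate 2 nearly equal. The difference was -1.83 ± 0.56 log2 units (edgeR adjusted p = 0.405, DESeq2 adjusted p = 0.0581), and the ratio of 0.276 became 0.454 without control replicate 3.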

How the data were processed

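Sperm small RNA of 8 mice was compared, 4 activated and 4 control by the deposited labels. The authors trimmed reads of 50 bp, kept those of 15 to 45 nt with duplicates left in and matched them without mismatch to mm10 and to RNA databases by Bowtie within SPORTS1.1. The authors deposited the count of raw reads of each distinct sequence, which was used here. The authors also deposited expected counts per annotation class, which were not used here.

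Members were taken by rRNA name and scaled to the library total. The members and lists were chosen with earlier results of these data known. Where a fragment had a count of 0, up to 3 counts remain possible, and this floor covers counting error only. Fragments, RNA names and length classes that reached 50 counts in 4 or more samples were fitted with edgeR 4.0.16 (TMM, quasi-likelihood, Benjamini-Hochberg adjustment) in R 4.3.3, and with DESeq2 1.42.0 and apeglm 1.24.0 as an alternative. Fold changes from apeglm are shrunken and those from edgeR are not, so their sizes are not directly comparable. A call required an adjusted p under 0.05 together with more than 1 log2 unit. Both tools were tested on simulated data, where edgeR made calls only at the larger of the changes tried, so its counts of 0 do not show equal levels. TMM was first computed with the library totals as sizes and then with the totals of the tested fragments, and this change was made after the counts of calls had been seen. For single values the test was an exact permutation of the 70 group assignments, two-sided, in Python 3.11.15 with numpy 2.4.6 and pandas 2.3.3. With a sample left out, all assignments of the remaining mice, 3 against 4, were used. Plots were drawn with matplotlib 3.10.9.

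Named fragments are, for each RNA, the 5 most abundant tested, the largest rise and fall, every call and the most abundant with and without genome match, and the 3 most abundant lengths. Of the comparison RNAs searched, 7SK, 7SL, vault RNA, RMRP, RPPH1, BC1, U6 and the nucleolar U3, U8, U13, U14, U22 and U17 have no name of their own in the annotation. No 2 libraries of a group were copies of each other.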

Additional observations from a re-analysis of the deposited data

Results flagged for a closer look

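In 54 groups of 4 samples, 13 values stood far from the other 3 samples of their group, while chance marks about 1 in 20 groups. Control replicate 3 accounts for 9 of the 13, and the groups share reads, so they are not independent. The named fragments and lengths among them were picked by abundance or difference in these same data. The rate of 1 in 20 does not hold for values picked in this way.

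In control replicate 3, reads named 45S came to 4692 RPM, against 1414 to 1681 RPM in the other controls. Its 28S family stood at 1015 RPM (37.8 to 79.2 RPM in the others) and its 18S family at 251 RPM (82.7 to 97.6 RPM). The 37 nt fragment at the 5.8S start reached 592 RPM (50.3 to 66.9 RPM), the 37 nt fragment at the 28S start 532 RPM (9.60 to 27.5 RPM) and the 18 nt fragment at the 18S start 209 RPM (72.1 to 83.6 RPM). All 45S reads of 37 nt came to 1178 RPM (85.2 to 112 RPM) and those of 18 nt to 294 RPM (105 to 112 RPM). The 31 nt fragment of 4.5S stood at 52.8 RPM (8.57 to 14.7 RPM).

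In activated replicate 3, the 37 nt fragment at the 5.8S start stood at 119 RPM (43.6 to 49.1 RPM in the other activated samples), the 37 nt fragment at the 28S start at 36.1 RPM (7.38 to 11.4 RPM) and all 45S reads of 37 nt at 175 RPM (65.0 to 74.0 RPM). In activated replicate 4, reads named 4.5S came to 626 RPM (532 to 548 RPM). What sets these libraries apart was not tested.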

How the results depend on the processing

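The 4.5S sum kept its direction in 5 of 6 alternatives, between 0.884 and 0.923 of control, and reversed to 1.01 when scaled to rRNA reads. Leaving out each sample gave 0.883 to 0.981. Its log2 fold change by name (-0.08) lay between -0.12 and -0.06 under the edgeR alternatives and was -0.04, shrunken, by DESeq2 with apeglm. When samples were left out it lay between -0.16 and 0.03, and it was positive without activated replicate 1 (0.03) or control replicate 3 (0.02).

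The 45S sum stayed below control throughout, but its exact p of 0.0286 was not reached when scaled to genome-matching reads (0.471), rRNA reads (0.635) or the TMM size (0.501), with p of 0.0571, 0.0857 and 0.0571. The subsets chosen after seeing the data stood at 0.618 (without a mature run of 12 bases) and 0.476 (at mature 5′ ends). Their exact permutation tests, which were not planned, gave p = 0.0571 each. The cause was not tested. Leaving out samples gave 0.452 to 0.774. Without activated replicate 1, 2, 3 or 4 the ratios were 0.494, 0.534, 0.496 and 0.519 (exact permutation tests, p = 0.200, 0.257, 0.200 and 0.229). In each of these subsets all activated values still lay under all control values. The test compares means of groups of unequal size, so these p-values do not measure that separation. Without control replicate 3 the ratio was 0.774 (exact permutation test, p = 0.0286, the smallest that 4 against 3 mice can give). The log2 fold change by name lay between -0.97 and -0.75 under the edgeR alternatives, and between -1.11 and -0.33 without single samples. DESeq2 with apeglm gave -0.20, a shrunken estimate that is not on the same scale.

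With the replicate number as a block, only the test of the sums changed. The ratio of group means stayed at 0.511 for the 45S sum (exact sign-flip permutation test, p = 0.125, the smallest that 4 pairs can give). For the 4.5S sum it stayed at 0.923. Same-numbered libraries 1 and 2 deviated in opposite directions (r = -0.63 and -0.55) and libraries 3 and 4 together (r = 0.59 and 0.52), so the numbers were not taken to pair the mice, and with the block no 4.5S or 45S fragment, name or length class was called.

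The share of 45S reads matching the genome differed by 2.38 (reads of at least 20 nt) to 4.14 points under alternatives and by 2.43 (without control replicate 3) to 5.65 without single samples. For 4.5S the difference was 0 in all settings. Calls among 4.5S and 45S fragments were 0 with edgeR in every setting, from 0 to 0 without single samples, and 1 with DESeq2. DESeq2 without control replicate 3, added after seeing the data, called 0. Length classes of 4.5S and 45S had 0 calls in every setting run, from 0 to 0 without single samples. TMM with library totals as sizes, also added later, left the calls among 4.5S and 45S fragments and length classes at 0 and the log2 fold changes by name at -0.08 and -0.93. Over all fragments edgeR called 61, and 0 under the replicate block. It called 30 when activated replicate 2 was left out, 58 when control replicate 1 was, and 0 when any other sample was. It called 107 (100 higher and 7 lower) with the principal component sets as covariate, 202 at the lower count minimum of 10, 52 with library totals as sizes and 50 with median-ratio size factors.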
